A study of Mus musculus with 105 samples.

Results

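The 36 genes described here are imprinted mouse genes, taken by symbol from a table of 53379 gene rows counted in 105 RNA sequencing libraries, and each of the 36 symbols had 1 row. They came from 16 imprinted loci on 9 chromosomes, 16 of them on chromosome 7 and 6 on chromosome 12. By textbook assignment 21 are expressed from the paternal copy and 14 from the maternal copy, some of these only in placenta, and Gnas has transcripts of both kinds. The study worked with tumour cells in which the gene for the histone methyltransferase Setdb1 was knocked out, and its title concerns tumour antigens made where exons join transposable elements. The knockout lines (KO, Setdb1 knocked out) were set against Ctrl lines, whose control construct the labels do not describe, and against unmodified lines (WT). KO, Ctrl and WT libraries numbered 3 each for B16 melanoma, MCA101OVA fibrosarcoma and MC38 colon adenocarcinoma, and 6 each for B16OVA, which is B16 melanoma carrying OVA. Tumour cells were grown in culture with serum and puromycin. Each title ends in a bracketed code (B253, B262, B176, D176, D812 or D804 before the library's own number), whose meaning the labels do not give and which was used as a batch term. A further 7 libraries, all of WT cells and of code B176, held B16, B16OVA, MCA101, MCA101OVA, MC38, MC38OVA and MC38GFP, 1 each. Another 5 libraries came from melanocytes kept in culture for weeks after isolation from new-born C57BL6/J mice, and 48 libraries from 12 tissues of WT female mice, 4 each, of an age the labels do not state. All cells and mice were C57BL/6. Each melanocyte title carries a name of its own, whose meaning the labels do not give. Nothing else in the labels says whether libraries of a group came from separate cultures, clones or mice. Each p-value therefore measures only the spread between the libraries at hand.

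An imprinted gene is transcribed mainly from the copy inherited from 1 parent, because DNA methylation laid down in egg or sperm at a control region of its locus is kept through every later cell division. The zinc finger protein ZFP57 binds the methylated hexamer TGCCGC at such regions and, through TRIM28, brings SETDB1, which places H3K9me3 there. Many imprinted genes act on fetal growth or in the brain and are turned down in most tissues after birth. The reads here were not split by parental copy, and inbred mice and lines derived from them have no sequence differences to split them by, so all values are of total expression. Levels are given as CPM, a gene's counts for each 1e6 counts of its library, and between-gene comparisons use CPM per kilobase of exon.

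Several libraries stood apart, and results that rest on them are given with that in view. Depth, in 1e6 counts, was 17.2 to 50.4 in the 45 tumour-line libraries of the KO, Ctrl and WT groups, 36.2 to 58.2 in code B176, 19.9 to 30.6 in melanocytes and 53.6 to 254 in tissues. Setdb1 itself had 19.2, 11.7 and 20.6 CPM in B16 KO libraries, against 62, 59.5 and 65.1 CPM in B16 Ctrl libraries. In MCA101OVA it had 36.7, 20.4 and 26.7 CPM in KO libraries, against 95.7, 45.7 and 62.6 CPM in Ctrl libraries, and in MC38 60.05, 85.3 and 74.1 CPM in KO libraries, against 54.9, 123 and 125 CPM in Ctrl libraries, where the groups overlapped and Setdb1 did not pass the test. In B16OVA it had 15.6 (lowest), 33.0 (median) and 49.9 (highest) CPM in KO libraries, against 21.1 (lowest), 77.3 (median) and 99.4 (highest) CPM in Ctrl libraries, with overlap through 1 low Ctrl library. In 10 of the 45 libraries, among them B16OVA Ctrl library 2, log2 CPM fell with exon length by more than 0.15 per doubling, so long genes were low in them. The libraries labelled MC38 in code D176, which hold all MC38 KO, Ctrl and WT groups, resembled libraries labelled MCA101 more than the libraries labelled MC38 in code B176. Across 15446 genes their median Pearson correlation was 0.974 with the MCA101 and MCA101OVA libraries of code B176 (18 pairs of libraries, 0.938 to 0.981) and 0.891 with the MC38 libraries of code B176 (27 pairs, 0.864 to 0.897). With the MCA101OVA libraries of codes B253 and B262 the median was 0.951 (81 pairs), but those pairs ran from 0.859 to 0.981 and overlapped the MC38 pairs. The MC38 libraries of code D176 are called the libraries labelled MC38 below, and no direction is drawn for colon adenocarcinoma from them. In melanocyte library 1 the summed level of 10 fibroblast markers was 20810 CPM, against 269 to 3183 CPM in the other 4 melanocyte libraries, and the sum of 10 melanocyte markers was 12938 CPM, against 48286 to 68597 CPM. Melanocyte library 5 had 4981 CPM of 7 leukocyte markers, against 191 to 1302 CPM in the others. In bulk libraries, fewer cells of a type and less RNA per cell cannot be told apart.

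Promoter windows from RefSeq (GRCm38.p6, 250 bases before to 50 after a gene's start) were found for 30 of the 36 genes and none for H19, Peg10, Sgce, Rtl1, Cdkn1c and Impact. Both strands were searched for TGCCGC, read as GCGGCA on the other strand. At least 1 window held it in 8 of the 30 genes (26.7%: Grb10, Igf2, Meg3, Mest, Nnat, Plagl1, Snrpn and Zim1), against 3527 of 27025 genes with a window (13.1%). Counted by window it was 9 of 44 (20.5%), against 3813 of 32851 (11.6%). The median window of these genes held 13.5 CpG pairs, against 7 over all windows. A match describes the letters only. Windows of 4 genes are shown with the hexamer in capitals, Plagl1 and Mest for genes that B16 cells transcribed and Grb10 and Meg3 for genes with few or no counts there. Plagl1 lies at chr10:13090582-13090881 on the plus strand, Mest at chr6:30737803-30738102 on the plus strand, Grb10 at chr11:12037371-12037670 on the minus strand and Meg3 at chr12:109540746-109541045 on the plus strand.
Plagl1: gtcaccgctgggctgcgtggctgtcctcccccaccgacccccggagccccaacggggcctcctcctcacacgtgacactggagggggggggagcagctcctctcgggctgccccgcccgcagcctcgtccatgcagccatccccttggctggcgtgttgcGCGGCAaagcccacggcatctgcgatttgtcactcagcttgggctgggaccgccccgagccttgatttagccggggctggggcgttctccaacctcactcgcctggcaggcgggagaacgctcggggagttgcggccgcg
Mest: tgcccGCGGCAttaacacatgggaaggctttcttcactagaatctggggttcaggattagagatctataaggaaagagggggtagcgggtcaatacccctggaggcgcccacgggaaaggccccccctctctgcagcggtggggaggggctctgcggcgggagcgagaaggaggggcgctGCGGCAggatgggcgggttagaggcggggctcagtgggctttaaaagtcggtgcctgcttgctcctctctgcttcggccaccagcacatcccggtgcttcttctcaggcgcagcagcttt
Grb10: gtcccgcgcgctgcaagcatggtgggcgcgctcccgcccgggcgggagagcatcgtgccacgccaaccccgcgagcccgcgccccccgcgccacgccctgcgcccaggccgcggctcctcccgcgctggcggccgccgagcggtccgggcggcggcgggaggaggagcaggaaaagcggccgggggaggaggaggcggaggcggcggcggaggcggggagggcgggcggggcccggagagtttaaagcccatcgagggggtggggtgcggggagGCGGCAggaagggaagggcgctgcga
Meg3: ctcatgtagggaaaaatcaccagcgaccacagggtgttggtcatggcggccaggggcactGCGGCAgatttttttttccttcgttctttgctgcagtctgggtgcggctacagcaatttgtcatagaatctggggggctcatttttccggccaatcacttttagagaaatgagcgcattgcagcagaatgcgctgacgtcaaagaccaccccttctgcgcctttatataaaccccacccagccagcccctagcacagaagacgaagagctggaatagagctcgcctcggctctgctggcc
The Plagl1 window holds 1 hexamer and 26 CpG pairs, the Mest window 2 and 17, the Grb10 window 1 and 45, and the Meg3 window 1 and 13.

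In the 45 tumour-line libraries, 17 of the 36 genes lay under 0.5 CPM in every library. The share of all gene rows at such levels was not counted. Enough counts to test in these libraries were held by 19 of the 36 genes, against 16809 of 53379 gene rows, so near-0 levels are not particular to imprinted genes. They included H19, the fetal long noncoding RNA paired with Igf2, then Peg3, Usp29 and Zim1 of the Peg3 locus, Dlk1, Rtl1, Dio3, Meg3, Rian and Mirg, the whole Dlk1-Meg3 set, Snrpn, Ndn and Magel2 of the Snrpn locus, and Ascl2, Nnat, Grb10 and Rasgrf1. Usp29, Zim1, Dio3, Meg3, Ndn and Magel2 had 0 counts in all 45 libraries. Summed over the 17 genes there were 49 counts in the 15 KO libraries, 55 in the 15 Ctrl libraries and 50 in the 15 WT libraries, from library totals that sum to 483, 429 and 503 (in 1e6 counts). The floor of 3 counts over a condition corresponds to 0.00621 CPM in KO, 0.00700 CPM in Ctrl and 0.00596 CPM in WT libraries, a limit that covers counting error only.

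The other 19 genes were sorted by their median in each line over its KO, Ctrl and WT libraries together. Such medians show differences between lines and cannot show any between conditions. By line medians, 7 genes were at 1 CPM or more in all 4 lines: Ppp1r9a (neurabin, a phosphatase regulator), Kcnq1ot1 and Airn (antisense noncoding RNAs of Kcnq1 and Igf2r), Cd81 (a tetraspanin), Igf2r (the receptor that clears IGF2), Gnas (the stimulatory G protein alpha subunit) and Impact (an inhibitor of the kinase GCN2). Mest, Peg10, Sgce and Plagl1 reached 1 CPM only in B16 and B16OVA. Igf2, Phlda2, Mkrn3, Peg12, Zrsr1 and Gatm reached it only in MCA101OVA and the libraries labelled MC38. Cdkn1c, the cell cycle inhibitor p57, stayed under 1 CPM in every line, and Slc22a18 followed neither pattern. The heat map of the cultured cells shows these blocks.

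**Figure D1:**
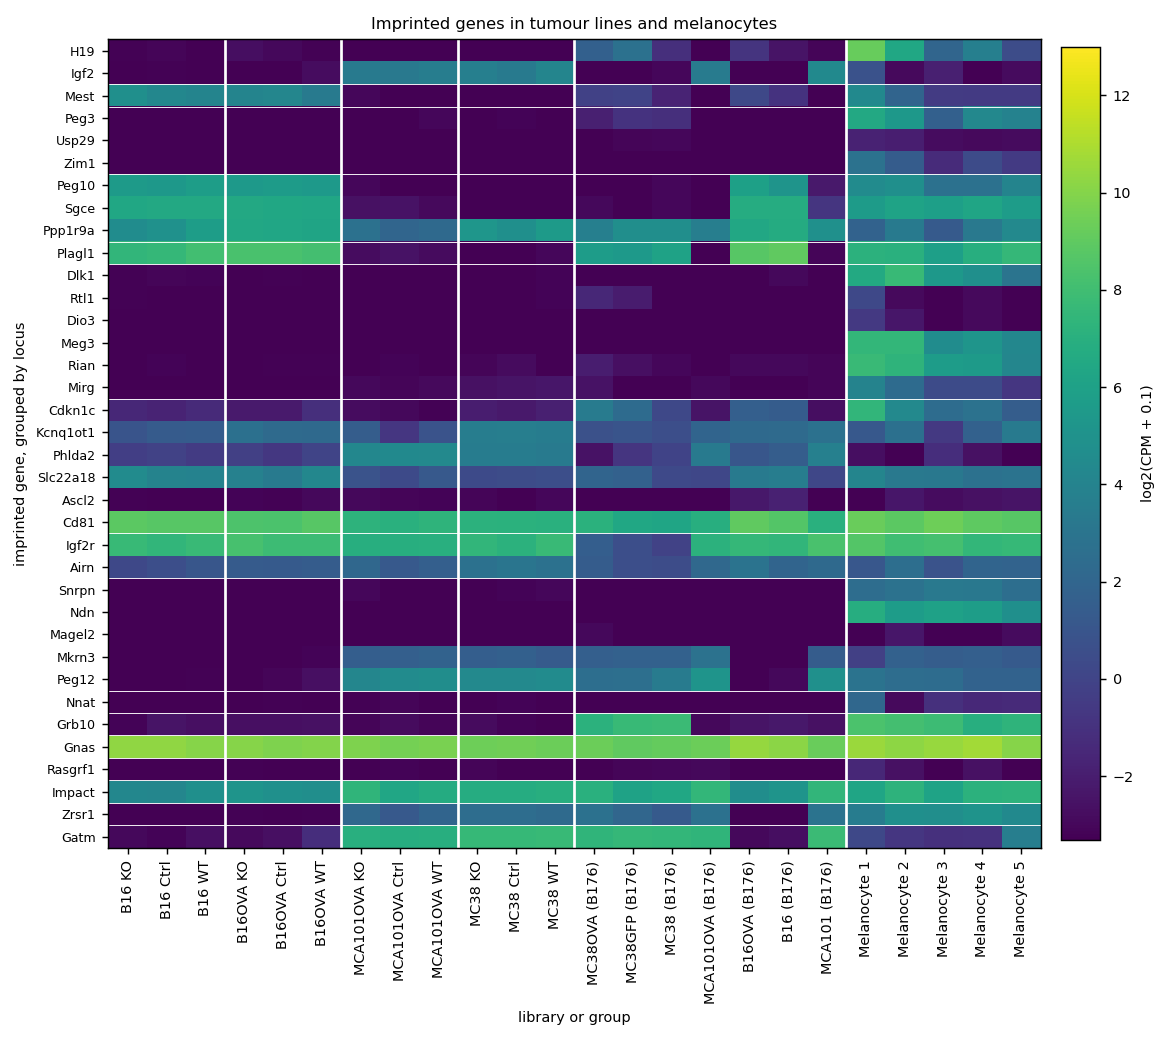
Level of each of the 36 imprinted genes as log2(CPM + 0.1), genes in rows and groups of cultured libraries in columns; the KO, Ctrl and WT columns are group means, those of code B176 and melanocytes single libraries. A block of 17 genes is near the bottom of the scale in all KO, Ctrl and WT columns, while Grb10 and H19 are among those of the block that lie above it in the MC38 columns of code B176, and 13 genes with a median of at least 1 CPM in melanocytes are near it in the B16 and B16OVA columns of these 3 conditions.

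No imprinted gene passed the test for a change in KO cells of any line. Of the 19 genes with enough counts to test, 0 were called in B16, B16OVA, MCA101OVA and the libraries labelled MC38 (edgeR, adjusted p under 0.05), while over all 16809 genes tested the share called was 0.690%, 1.05%, 0.345% and 0.464%. DESeq2 also called 0 in each line, and the other 17 genes had too few counts to test. At an unadjusted p under 0.05 there were 0, 0, 1 and 0 of the 19, against 443, 1241, 857 and 448 of all 16809 genes. The median log2 fold of the genes with a mean of 1 CPM or more in KO or Ctrl libraries of a line was 0.05 (12 genes), 0.08 (12), 0.12 (14) and -0.08 (14).

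The best measured genes bounded the change most closely. Gnas had 1446, 1367 and 1012 CPM in B16 KO libraries, against 1423, 1258 and 999 CPM in B16 Ctrl libraries, with a log2 fold of 0.11 and a 95% interval of -0.36 to 0.57. Cd81 had 518, 534 and 349.6 CPM in B16 KO libraries, against 473, 443 and 386 CPM in B16 Ctrl libraries (log2 fold 0.16, interval -0.44 to 0.75). Both pairs of groups overlapped. Intervals within 1 log2 unit of 0 were reached by Sgce, Cd81 and Gnas in B16, by Sgce, Cd81, Airn and Gnas in B16OVA, by Cd81 and Gnas in MCA101OVA and by Phlda2, Cd81, Gnas and Zrsr1 in the libraries labelled MC38. For all others the interval reached beyond that range in at least 1 direction.

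Of the genes with that mean, the 3 with the highest and the 3 with the lowest log2 fold in each line showed how far the libraries scattered. In B16 the highest were Slc22a18 (a transporter), Mest (a hydrolase-fold protein of mesoderm) and Igf2r. Slc22a18 had 23.9, 30.3 and 15.8 CPM in B16 KO libraries, against 16.9, 16.8 and 13.3 CPM in B16 Ctrl libraries (log2 fold 0.61, interval -0.60 to 1.83). Mest had 43, 8.98 and 32.7 CPM in B16 KO libraries, against 17, 4.20 and 35.7 CPM in B16 Ctrl libraries (log2 fold 0.40, interval -1.39 to 2.19). Igf2r had 245, 128 and 242 CPM in B16 KO libraries, against 178, 148 and 181 CPM in B16 Ctrl libraries (log2 fold 0.28, interval -0.72 to 1.28). KO library 2, which is low for long genes, held the lowest value of Igf2r. The lowest were Kcnq1ot1, Airn and Ppp1r9a. Kcnq1ot1 had 0.506, 0.262 and 4.53 CPM in B16 KO libraries, against 1.26, 0.660 and 5.36 CPM in B16 Ctrl libraries (log2 fold -0.47, interval -2.48 to 1.53). Airn had 1.11, 1.02 and 0.987 CPM in B16 KO libraries, against 1.36, 1.17 and 1.75 CPM in B16 Ctrl libraries (log2 fold -0.43, interval -1.49 to 0.62). Ppp1r9a had 16.9, 9.76 and 45.7 CPM in B16 KO libraries, against 28.7, 24.2 and 40.3 CPM in B16 Ctrl libraries (log2 fold -0.34, interval -1.71 to 1.03). The KO and Ctrl libraries overlapped for each of these 6 genes except Airn, and none passed the test. How many of all genes had KO and Ctrl libraries apart was not counted.

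In B16OVA the highest were Kcnq1ot1, Igf2r and Slc22a18 and the lowest Mest, Peg10 and Cd81. Kcnq1ot1 had 0.343 (lowest), 6.82 (median) and 12 (highest) CPM in B16OVA KO libraries, against 0.523 (lowest), 4.34 (median) and 9.72 (highest) CPM in B16OVA Ctrl libraries (log2 fold 0.42, interval -1.0 to 1.84). Igf2r had 149 (lowest), 327.6 (median) and 389.8 (highest) CPM in B16OVA KO libraries, against 24 (lowest), 274 (median) and 336.3 (highest) CPM in B16OVA Ctrl libraries (log2 fold 0.37, interval -0.34 to 1.08). Slc22a18 had 9.36 (lowest), 13.7 (median) and 20.7 (highest) CPM in B16OVA KO libraries, against 8.48 (lowest), 10.51 (median) and 13.6 (highest) CPM in B16OVA Ctrl libraries (log2 fold 0.28, interval -0.58 to 1.14). The KO and Ctrl ranges of all 3 overlapped. Mest had 1.33 (lowest), 7.73 (median) and 43.8 (highest) CPM in B16OVA KO libraries, against 4.69 (lowest), 16.2 (median) and 34.6 (highest) CPM in B16OVA Ctrl libraries (log2 fold -0.52, interval -1.79 to 0.74). Peg10 had 10.1 (lowest), 44 (median) and 72.5 (highest) CPM in B16OVA KO libraries, against 3.95 (lowest), 47.5 (median) and 82.1 (highest) CPM in B16OVA Ctrl libraries (log2 fold -0.24, interval -1.36 to 0.88). Cd81 had 207 (lowest), 343.3 (median) and 487 (highest) CPM in B16OVA KO libraries, against 244 (lowest), 309.01 (median) and 456 (highest) CPM in B16OVA Ctrl libraries (log2 fold -0.06, interval -0.48 to 0.36). These ranges overlapped too, and Kcnq1ot1, Mest and Peg10 each spanned over 4-fold within the KO group.

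In MCA101OVA the highest was Kcnq1ot1, followed by Impact and Zrsr1 (a retroposed splicing factor gene whose exons overlap those of Commd1 on the other strand). Kcnq1ot1 had 6.81, 0.353 and 0.917 CPM in MCA101OVA KO libraries, against 0.307, 0.137 and 1.03 CPM in MCA101OVA Ctrl libraries (log2 fold 2.26, interval -0.02 to 4.54). Impact had 261, 83.1 and 156 CPM in MCA101OVA KO libraries, against 37.6, 29.4 and 177 CPM in MCA101OVA Ctrl libraries (log2 fold 0.95, interval -0.38 to 2.29). Zrsr1 had 5.03, 5.15 and 3.36 CPM in MCA101OVA KO libraries, against 1.97, 1.60 and 3.09 CPM in MCA101OVA Ctrl libraries (log2 fold 0.91, interval 0.02 to 1.81). Kcnq1ot1 had an unadjusted p of 0.0523 and Zrsr1 one of 0.0459, with adjusted p of 0.878 and 0.878 in edgeR. Only for Zrsr1 did the KO and Ctrl libraries not overlap. The share of all genes apart in this way was not counted, so no change is read from it. Ctrl libraries 1 and 2 and KO library 2 are among those low for long genes. Without such libraries 0 genes were called, and with no filter on low counts 1 gene was, Kcnq1ot1. The lowest were Peg12 (a FRAT family gene), Phlda2 (a growth inhibitor of placenta) and Mkrn3 (a RING finger protein). Peg12 had 25.1, 11.6 and 17.6 CPM in MCA101OVA KO libraries, against 35.6, 8.91 and 25.2 CPM in MCA101OVA Ctrl libraries (log2 fold -0.41, interval -1.55 to 0.74). Phlda2 had 20.3, 12.8 and 24.2 CPM in MCA101OVA KO libraries, against 27.2, 16.5 and 21.1 CPM in MCA101OVA Ctrl libraries (log2 fold -0.32, interval -1.10 to 0.46). Mkrn3 had 2.60, 3.83 and 1.93 CPM in MCA101OVA KO libraries, against 4.03, 2.60 and 2.10 CPM in MCA101OVA Ctrl libraries (log2 fold -0.19, interval -1.20 to 0.83). For these 3 genes the groups overlapped.

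In the libraries labelled MC38 the folds were small in both directions. Ppp1r9a had 40.8, 48.2 and 23.7 CPM in MC38 KO libraries, against 16, 38.3 and 29.8 CPM in MC38 Ctrl libraries (log2 fold 0.36, interval -1.01 to 1.73). Igf2 had 13.1, 13.5 and 12.6 CPM in MC38 KO libraries, against 0.786, 13.6 and 15.6 CPM in MC38 Ctrl libraries (log2 fold 0.35, interval -1.16 to 1.85). Igf2r had 176.4, 203 and 124 CPM in MC38 KO libraries, against 57.2, 201 and 165 CPM in MC38 Ctrl libraries (log2 fold 0.20, interval -0.80 to 1.20). Ctrl library 1, low for long genes, held the lowest Igf2r level. Airn had 7.28, 7.18 and 5.64 CPM in MC38 KO libraries, against 9.02, 7.51 and 7.40 CPM in MC38 Ctrl libraries (log2 fold -0.33, interval -1.35 to 0.69). Slc22a18 had 1.85, 0.908 and 0.756 CPM in MC38 KO libraries, against 2.69, 0.814 and 0.376 CPM in MC38 Ctrl libraries (log2 fold -0.23, interval -1.55 to 1.09). Mkrn3 had 2.12, 3.27 and 3.03 CPM in MC38 KO libraries, against 2.28, 3.44 and 3.46 CPM in MC38 Ctrl libraries (log2 fold -0.20, interval -1.20 to 0.81). The KO and Ctrl libraries overlapped for each of these 6 genes except Airn, and none passed the test. Here too the share of all genes with KO and Ctrl libraries apart was not counted. The plot of KO folds sets all 4 lines side by side.

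**Figure D2:**
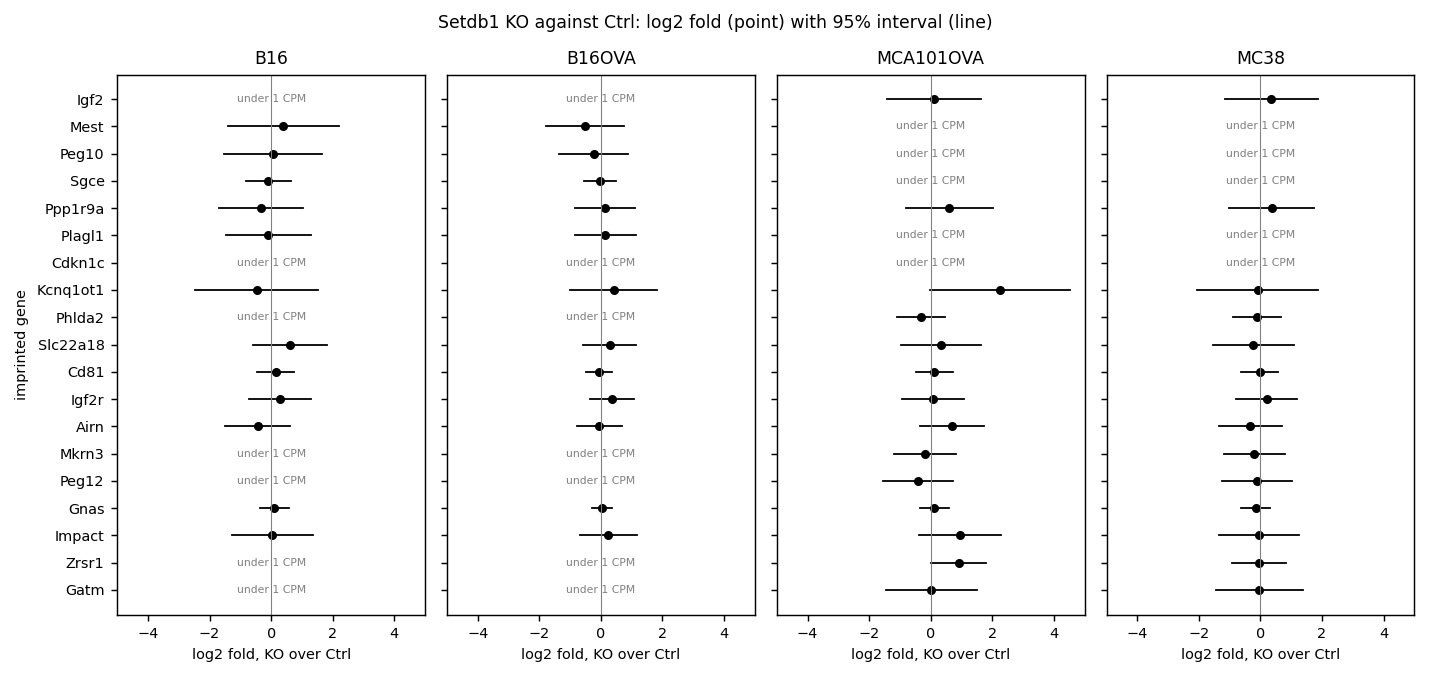
Log2 fold of KO over Ctrl for each tested imprinted gene in each of the 4 lines; points are the edgeR log2 fold, lines its 95% interval, and genes under 1 CPM in both groups are marked. Every interval of a gene at 1 CPM or more crosses 0 except that of Zrsr1 in MCA101OVA (0.02 to 1.81).

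The Ctrl lines, which keep Setdb1, did not differ from WT lines in any of the 36 genes by the test. Calls were 0 of 19 in each line, against 0% of 16809 genes in each line (edgeR), and DESeq2 also called 0. At an unadjusted p under 0.05 the count was 5 in B16OVA and 0 in each other line. The 5 were Cdkn1c, Phlda2, Cd81, Gatm (the enzyme of creatine synthesis) and Igf2, all lower in Ctrl. Cd81, the only abundant one, had 244 (lowest), 309.01 (median) and 456 (highest) CPM in B16OVA Ctrl libraries, against 345.6 (lowest), 434 (median) and 537 (highest) CPM in B16OVA WT libraries (log2 fold -0.48, interval -0.90 to -0.05, adjusted p = 1, edgeR). Igf2 was at 0 in every B16OVA Ctrl library, against 8 counts in WT library 6 and 0 in each other WT library. Gatm had 0 (lowest), 0 (median) and 0.290 (highest) CPM in B16OVA Ctrl libraries, against 0 (lowest), 0.0194 (median) and 1.85 (highest) CPM in B16OVA WT libraries. Gatm was called lower in Ctrl libraries with no filter on low counts, and also without the libraries low for long genes. The highest WT value of both genes was that of WT library 6, at 0.255 CPM for Igf2 and 1.85 CPM for Gatm, which is 1.89% and 0.925% of the median in the libraries labelled MC38 of the same code. The KO effect of B16, MCA101OVA and MC38 was also tested against that of B16OVA. It differed for 0 of 19 genes each time, against 0%, 0.101% and 0.262% of all genes, and DESeq2 also called 0. At an unadjusted p under 0.05 there were again 0, against 249, 434 and 470 of all 16809 genes.

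B16OVA WT cells lacked many imprinted transcripts that cultured melanocytes carried. Compared within code D176 (B16OVA WT libraries 4, 5 and 6 against the 5 melanocyte libraries), 15 of 28 tested genes were lower in B16OVA WT cells and 3 higher (edgeR, adjusted p under 0.05), where 19.5% of all 15172 tested genes were lower and 14.3% higher. The lower genes held H19, the maternal RNAs Meg3, Rian and Mirg with their paternal neighbour Dlk1, Peg3 and Zim1, and Snrpn, Ndn, Mkrn3 and Peg12 of 1 locus on chromosome 7, beside Grb10, Zrsr1, Cdkn1c and Impact. The higher genes were Ppp1r9a, Phlda2 and Plagl1. A median of at least 1 CPM in melanocytes and under 0.5 CPM in all 27 B16 and B16OVA libraries was seen for 13 genes. All 13 were among the 15, but both levels were read from libraries of the test, so that overlap adds no support. Genes without a count in B16OVA WT libraries passed the count filter through melanocytes alone and could only be called lower. The 13 genes were 52% of 25 imprinted genes at that melanocyte level, against 7.37% of 12885 genes of any kind. Asking for 1 CPM in every melanocyte library gave 10 of 21 (47.6%), against 4.74% of 11504.

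Wide gaps were seen at the Dlk1-Meg3 locus of chromosome 12, where Meg3 (mm10, chr12:109541001-109571726, plus strand) is a long noncoding RNA and Dlk1 a membrane protein related to Delta. Meg3 had 0, 0 and 0 CPM in B16OVA WT libraries, against 177, 181, 24.2, 37.0 and 18.3 CPM in melanocyte libraries. Dlk1 had 0, 0 and 0 CPM in B16OVA WT libraries, against 98.4, 205, 40.7, 27.3 and 7.56 CPM in melanocyte libraries. Rian had 0, 0 and 0 CPM in B16OVA WT libraries, against 215, 159.8, 51.5, 47.8 and 17.8 CPM in melanocyte libraries. Rian, the host of a snoRNA cluster, and Mirg, the host of a microRNA cluster, were likewise at 0 in all 3 B16OVA WT libraries, while every melanocyte library held Meg3, Dlk1 and Rian. With the 0 counts of B16OVA WT set to the floor of 3 counts over the group, Meg3 was at least 2551-fold lower, Rian at least 2792-fold, Dlk1 at least 2327-fold and Mirg at least 125-fold (adjusted p = 0.00185 for Meg3 and 0.00226 for Dlk1, edgeR). Without melanocyte library 2 the bounds were 1692-fold for Meg3 and 1172-fold for Dlk1, and without library 1 the bound for Mirg was 62.5-fold.

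Grb10 (mm10, chr11:11930508-12038683, minus strand), the adaptor that restrains insulin and IGF receptors, varied by less than 3-fold between melanocyte libraries. Grb10 had 0.264, 0.0389 and 0.0319 CPM in B16OVA WT libraries, against 336.7, 273, 237, 122 and 156 CPM in melanocyte libraries. Pooled, that was 10 counts against 27862 counts, a ratio of 1917 with a counting interval of 1042 to 3997, and the adjusted p was 0.000130. Of the 10 counts 8 came from B16OVA WT library 4, and without it the ratio was 6259. Ndn had 0, 0 and 0 CPM in B16OVA WT libraries, against 114, 51.8, 63.9, 53.4 and 28.3 CPM in melanocyte libraries. Snrpn had 0, 0 and 0 CPM in B16OVA WT libraries, against 5.54, 7.09, 9.75, 9.31 and 5.95 CPM in melanocyte libraries. The groups were far apart for all 3 genes, with necdin (Ndn) at least 1739-fold and Snrpn at least 222-fold lower in B16OVA WT cells. Zrsr1 had 0, 0 and 0.0319 CPM in B16OVA WT libraries, against 11.4, 27.7, 26.8, 33.6 and 21.8 CPM in melanocyte libraries. Its pooled counts were 1 and 3205, a ratio of 2205 whose interval, 395 to 87107, covers counting error only. The ratio was 1440.04 without B16OVA WT library 4, and at least 471 without library 6, which held the 1 count. The kit kept strand, but how strand entered the counting is not given in the sources used here. Exons of 14 of the 36 genes overlap those of a gene on the other strand, among them Zrsr1 (Commd1), Kcnq1ot1 (Kcnq1), Mest (Copg2), Gnas (Nespas), Igf2 (Igf2os), H19, Meg3, Snrpn, Cdkn1c, Plagl1 and Cd81, and the part of the partners' reads in their counts was not tested.

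Other genes of the lower set varied more among melanocyte libraries. Peg3 had 0, 0 and 0 CPM in B16OVA WT libraries, against 92.9, 41.1, 3.11, 19.8 and 15.3 CPM in melanocyte libraries. H19 had 0, 0 and 0 CPM in B16OVA WT libraries, against 579, 82.7, 3.93, 13.3 and 1.28 CPM in melanocyte libraries. Cdkn1c had 0.330, 0.972 and 0.287 CPM in B16OVA WT libraries, against 168, 20.4, 5.26, 6.88 and 2.77 CPM in melanocyte libraries. Every melanocyte library lay above every B16OVA WT library for these 3 genes, with Peg3 at least 945-fold and H19 at least 3336-fold lower in B16OVA WT cells, bounds that were 619-fold and 826-fold without melanocyte library 1. Mkrn3 had 0, 0 and 0.0638 CPM in B16OVA WT libraries, against 0.755, 3.27, 2.76, 2.91 and 2.40 CPM in melanocyte libraries. Peg12 had 0, 0 and 0.319 CPM in B16OVA WT libraries, against 7.20, 5.65, 5.39, 3.42 and 3.35 CPM in melanocyte libraries. Impact had 55.4, 6.45 and 42.5 CPM in B16OVA WT libraries, against 78.1, 152, 69.2, 146 and 150.0 CPM in melanocyte libraries. Mkrn3 and Peg12 did not overlap between groups and neither did Impact, whose call ended without melanocyte library 2, 4 or 5 or B16OVA WT library 6. Zim1, a zinc finger gene of the Peg3 locus, was at 0 in B16OVA WT cells, at least 63.7-fold lower, or 37.5-fold without melanocyte library 1. The calls of H19 and Cdkn1c ended without any of the 3 B16OVA WT libraries, and DESeq2 did not call Cdkn1c.

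The 3 genes higher in B16OVA WT cells rested on narrower gaps. Plagl1 had 516, 95 and 512 CPM in B16OVA WT libraries, against 144, 131, 59.7, 121 and 189 CPM in melanocyte libraries. Plagl1, a zinc finger factor that itself acts on other imprinted genes, had a log2 fold of 1.53 ± 0.48 (SE, adjusted p = 0.0357, edgeR), though B16OVA WT library 5, low for long genes, lay inside the melanocyte range. Ppp1r9a had 169, 13.6 and 140.1 CPM in B16OVA WT libraries, against 3.37, 10.7, 2.42, 9.62 and 20.7 CPM in melanocyte libraries. Its log2 fold was 3.54 ± 0.78 (SE, adjusted p = 0.00742, edgeR), again with library 5 within the melanocyte range. Phlda2 had 0.825, 1.09 and 0.733 CPM in B16OVA WT libraries, against 0.0503, 0, 0.345, 0.0685 and 0 CPM in melanocyte libraries. For Phlda2 the groups did not overlap and the log2 fold was 3.38 ± 0.99 (SE, adjusted p = 0.0258, edgeR). Plagl1 was no longer called without B16OVA WT library 4 or 6 or melanocyte library 2, 3 or 4, and Phlda2 without B16OVA WT library 4, 5 or 6 or melanocyte library 4. The 10 tested genes that were not called held Sgce (epsilon-sarcoglycan), Cd81, Gnas and Igf2r, all abundant in both cell types. Sgce had 102, 67.9 and 78.3 CPM in B16OVA WT libraries, against 50.6, 72, 59.7, 77.1 and 51.8 CPM in melanocyte libraries.

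**Figure D3:**
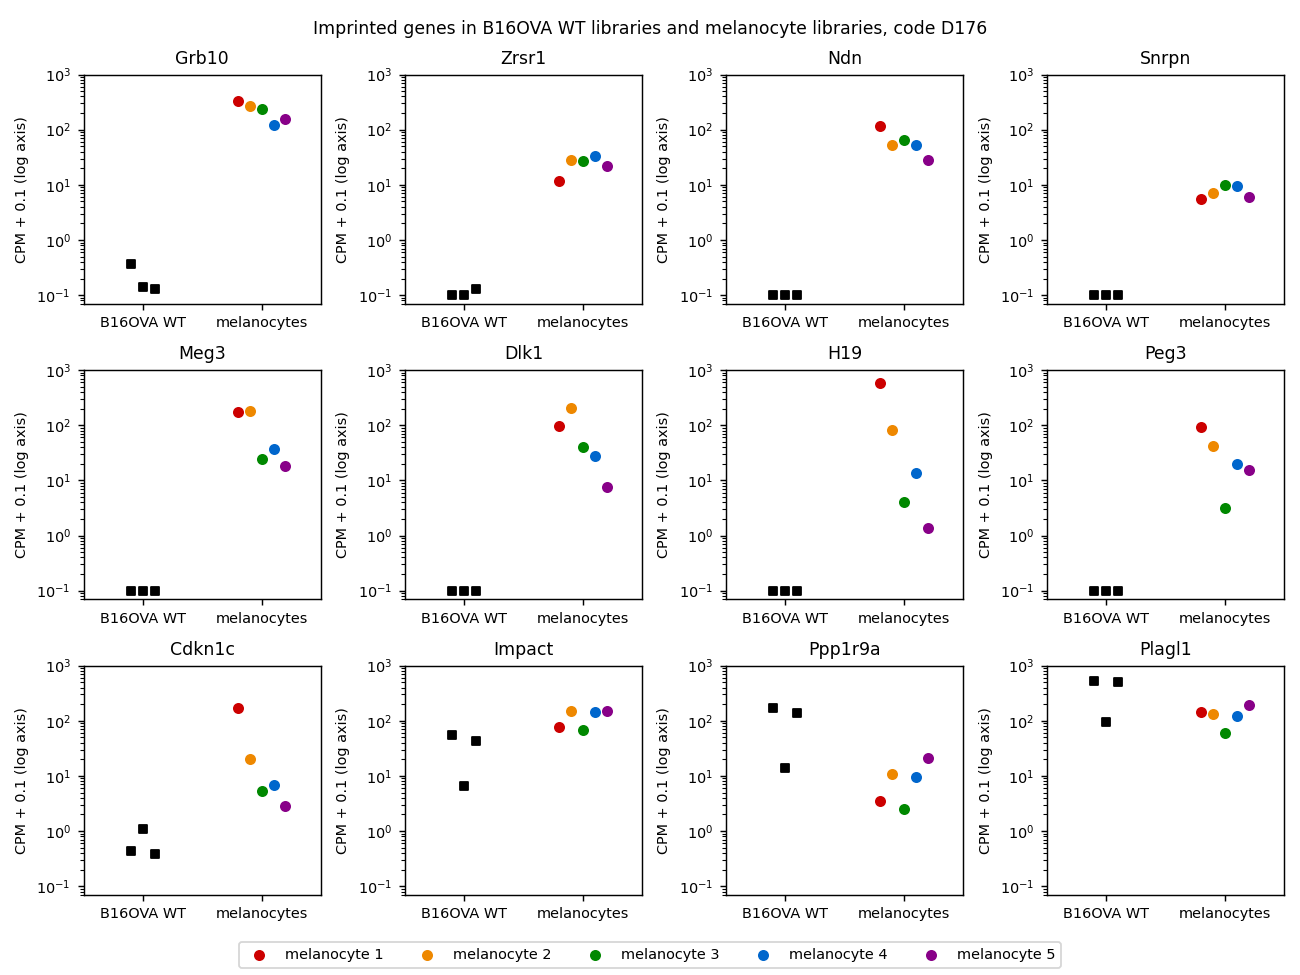
CPM of 12 imprinted genes on a log axis, squares for the 3 B16OVA WT libraries of code D176 and coloured points for the 5 melanocyte libraries. Melanocyte library 1 stands at the top for H19 (579 CPM) and Cdkn1c (168 CPM), while Grb10 and Snrpn vary by less than 3-fold between melanocyte libraries.

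Among melanocyte libraries themselves, of 28 genes that averaged 1 CPM or more, 11 differed over 10-fold between libraries and 10 differed by less than 3-fold. Library 1 was the highest for 13 of the 28. The same counts were not made over all genes, so this spread is not read as particular to imprinted genes. H19 spanned 452-fold, Nnat (neuronatin) 132-fold, Cdkn1c 60.7-fold and Mest 37.4-fold, each highest in library 1. Library 1 also held the highest sum of fibroblast markers, and their part in these levels was not tested. Gatm had 1.06, 0.490, 0.388, 0.411 and 12.8 CPM, highest in library 5, the library with most leukocyte marker counts. The genes under 3-fold were Zrsr1, Grb10, Slc22a18, Impact, Igf2r, Peg12, Snrpn, Gnas, Cd81 and Sgce. Without libraries 1 and 5 together, a choice made after seeing the data, 15 genes were called, 13 lower and 2 higher in B16OVA WT cells, and Impact, Phlda2 and Zim1 were lost.

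B16OVA and MCA101OVA cells carried different sets of imprinted transcripts. Between WT libraries 1, 2 and 3 of each line, 7 of 18 tested genes were higher in B16OVA WT cells and 7 lower, against 14.4% and 11.9% of 14266 genes (edgeR). Peg10, Sgce and Ppp1r9a, which adjoin each other on chromosome 6, were higher together with Mest, Plagl1, Slc22a18 and Cd81. Igf2, Phlda2, Mkrn3, Peg12, Zrsr1, Gatm and Impact were lower. Peg10 had 82.7, 14.5 and 59.7 CPM in B16OVA WT libraries, against 0, 0 and 0 CPM in MCA101OVA WT libraries. Sgce had 92.5, 70.3 and 81.8 CPM in B16OVA WT libraries, against 0.0232, 0.0683 and 0 CPM in MCA101OVA WT libraries. Plagl1 had 314.5, 34.7 and 235 CPM in B16OVA WT libraries, against 0.0232, 0.0683 and 0.0302 CPM in MCA101OVA WT libraries. All 3 were at or near 0 in MCA101OVA WT libraries, and Peg10, a gene of retrotransposon origin, was at least 2070.4-fold and Mest at least 652-fold higher in B16OVA WT cells.

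In the other direction Igf2, the fetal growth factor, stood out. Igf2 had 0, 0 and 0 CPM in B16OVA WT libraries, against 11.7, 11.6 and 12.5 CPM in MCA101OVA WT libraries. Gatm had 0.131, 0 and 0 CPM in B16OVA WT libraries, against 135, 106 and 125 CPM in MCA101OVA WT libraries. Peg12 had 0.0262, 0 and 0 CPM in B16OVA WT libraries, against 32.4, 20.1 and 24.4 CPM in MCA101OVA WT libraries. No B16OVA WT library overlapped an MCA101OVA WT library for these genes, and Igf2 was at least 399-fold, Zrsr1 at least 124-fold and Mkrn3 at least 113-fold lower in B16OVA WT cells. Phlda2 had 0.709, 1.38 and 0.681 CPM in B16OVA WT libraries, against 19.7, 19 and 22.2 CPM in MCA101OVA WT libraries (log2 fold -4.51 ± 0.56 SE, adjusted p = 0.000415, edgeR). Impact had 28.7, 3.70 and 20.6 CPM in B16OVA WT libraries, against 115, 82.8 and 115 CPM in MCA101OVA WT libraries (log2 fold -2.74 ± 0.60 SE, adjusted p = 0.00833, edgeR). Ppp1r9a had 65.4, 8.20 and 38.2 CPM in B16OVA WT libraries, against 3.79, 3.69 and 6.53 CPM in MCA101OVA WT libraries (log2 fold 2.75 ± 0.69 SE, adjusted p = 0.0166, edgeR). The Ppp1r9a call ended without B16OVA WT library 1 or 3 or MCA101OVA WT library 1, while no other call of this comparison was lost when a library was left out. Slc22a18 had 12.3, 24.9 and 14.3 CPM in B16OVA WT libraries, against 1.02, 4.44 and 1.36 CPM in MCA101OVA WT libraries (log2 fold 3.02 ± 0.61 SE, adjusted p = 0.00544, edgeR). Cd81 had 418, 496 and 449.8 CPM in B16OVA WT libraries, against 158, 186 and 129 CPM in MCA101OVA WT libraries (log2 fold 1.5 ± 0.32 SE, adjusted p = 0.00768, edgeR). Pigment cell genes, 9 in all, summed in MCA101OVA libraries to a median of 0.0321% and at most 0.0915% of their B16 and B16OVA level, and the part of such counts in the low levels of Sgce and Plagl1 there was not tested.

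The libraries labelled MC38 were set against B16OVA WT libraries of their own code. Of 18 tested genes 6 were higher and 6 lower in B16OVA WT libraries 4, 5 and 6 than in libraries labelled MC38 WT, against 18.9% and 14.1% of 14204 genes (edgeR). Higher were Mest, Peg10, Sgce, Plagl1, Slc22a18 and Cd81, and lower Igf2, Phlda2, Mkrn3, Peg12, Zrsr1 and Gatm. Igf2 had 0, 0 and 0.255 CPM in B16OVA WT libraries, against 22.4, 15.8 and 13.5 CPM in libraries labelled MC38 WT. Gatm had 0, 0.0389 and 1.85 CPM in B16OVA WT libraries, against 193, 232 and 188 CPM in libraries labelled MC38 WT. Peg10 had 34.9, 13.7 and 59.7 CPM in B16OVA WT libraries, against 0, 0 and 0 CPM in libraries labelled MC38 WT. The groups did not overlap, and the values of Igf2 and Gatm above 0 in B16OVA WT cells came mostly from library 6. Sgce was at least 2782-fold, Peg10 at least 1251-fold and Mest at least 106-fold higher in B16OVA WT cells, or 61.2-fold for Mest without B16OVA WT library 6. Phlda2 had 0.825, 1.09 and 0.733 CPM in B16OVA WT libraries, against 9.07, 11.2 and 11.8 CPM in libraries labelled MC38 WT (log2 fold -3.47 ± 0.43 SE, adjusted p = 0.000621, edgeR). Slc22a18 had 12.3, 33.8 and 13.6 CPM in B16OVA WT libraries, against 2.75, 0.848 and 0.584 CPM in libraries labelled MC38 WT (log2 fold 4.03 ± 0.79 SE, adjusted p = 0.00542, edgeR). Cd81 had 345.6, 537 and 397 CPM in B16OVA WT libraries, against 159, 136 and 98.8 CPM in libraries labelled MC38 WT (log2 fold 1.84 ± 0.37 SE, adjusted p = 0.00589, edgeR). Without B16OVA WT library 5, which is low for long genes, 16 genes were called, and Airn, Igf2r, Impact and Ppp1r9a joined the others. The comparison shares its 3 B16OVA WT libraries with the melanocyte one. Against B16 WT, B16OVA WT cells differed in 0 of 13 tested genes, against 0% of 13834 genes (edgeR), and DESeq2 also called 0. At an unadjusted p under 0.05 there were 0 of the 13, against 122 of all 13834 genes.

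The libraries labelled MC38 in code B176 had a different imprinted profile from those so labelled in code D176. Of 18 genes with a median of at least 1 CPM in 1 of the sets compared, 9 differed over 4-fold between the medians of the 3 libraries of code B176 and the 9 of code D176, and the ranges of 10 did not overlap, against 15.8% and 39.8% of 12803 genes of any kind at that level. Against 11 MCA101 and MCA101OVA libraries, the 9 libraries of code D176 differed over 4-fold for 2 of 18 genes, against 3.77% of all genes. Kcnq1ot1 (medians 12.3 and 1.18 CPM) and Ppp1r9a (38.3 and 6.33 CPM) were these 2, both higher in code D176. No range of the 18 genes stood apart, against 1.82% of all genes. Grb10 had 141, 203 and 219 CPM in MC38OVA, MC38GFP and MC38 of code B176, against at most 0.116 CPM in code D176 and 0.0877 CPM in MCA101 libraries. Plagl1 had 51.7, 44.9 and 66.8 CPM in the same 3 libraries, against at most 0.0591 CPM in code D176. Igf2r and Igf2 ran the other way. Igf2r had 0.817 to 2.84 CPM in code B176, against 57.2 to 266 CPM in code D176, and Igf2 had 0 to 0.0227 CPM in code B176, against 0.786 to 22.4 CPM in code D176. H19 was at 0.363 to 6.84 CPM in code B176 and at 0 in all 9 libraries of code D176. No test was made across codes, where code and cells cannot be told apart. Of 7 markers of simple epithelium, 0 had a median of 1 CPM or more in the libraries of code B176, against 2 in those of code D176 and 2 in MCA101 libraries. The 2 were Krt8 and Krt18, keratins of simple epithelium, at medians of 0.0681 and 0.0570 CPM in code B176, against 461 and 339.03 CPM in code D176 and 766 and 395 CPM in MCA101 libraries, while Epcam stayed under 0.1 CPM in each library of the 3 sets.

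**Figure D4:**
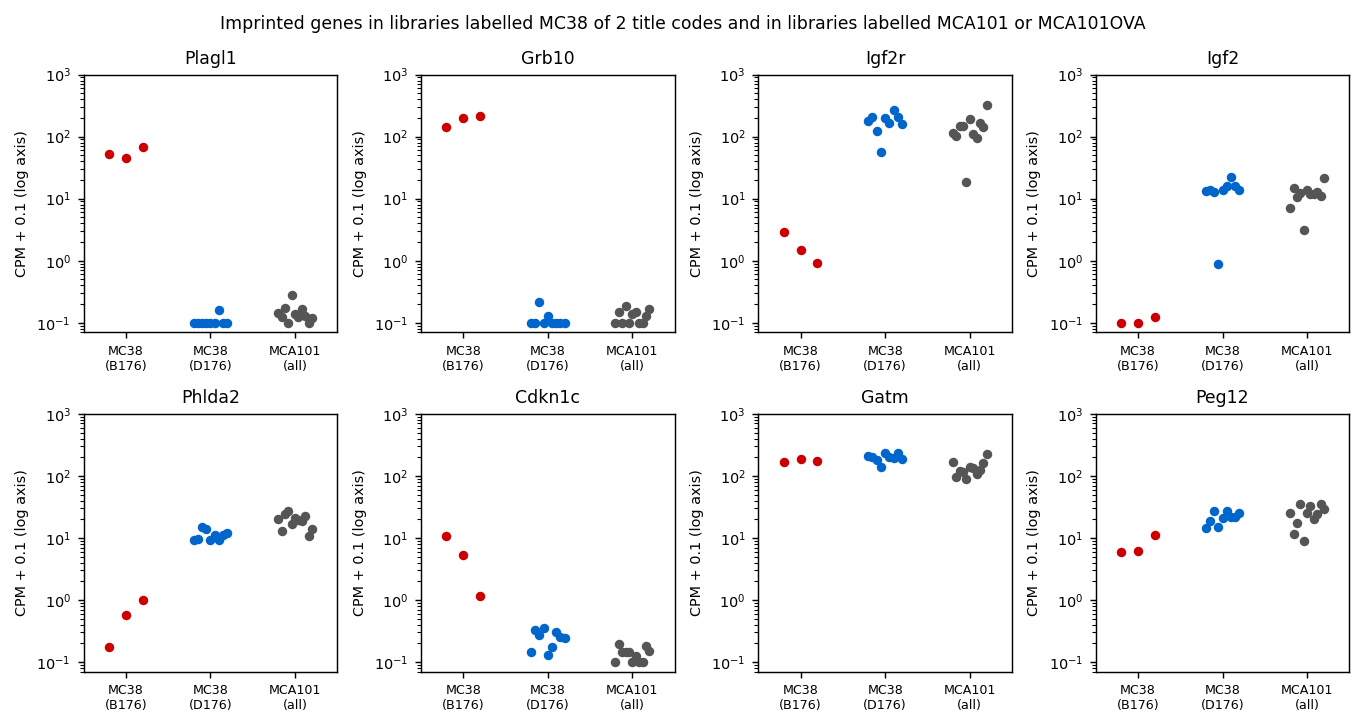
CPM of 8 imprinted genes, each point 1 library, in the 3 libraries labelled MC38 of code B176, the 9 of code D176 and 11 libraries labelled MCA101 or MCA101OVA. Grb10 and Plagl1 are high in code B176 only, and Igf2r and Igf2 are high in the other 2 sets.

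Among tissues, brain held the largest group of enriched imprinted genes. All 36 genes were tested, each tissue against the mean of the other 11, and a gene counted as tissue-enriched when it passed an adjusted p under 0.05 with a log2 fold of at least 2 in the tissue of its highest mean. By that rule 24 of 36 genes were enriched in some tissue, against 59.3% of 26242 genes. Brain held 14 of them (12.2% of all genes), kidney 3 (3.89%), ovary 3 (4.84%), heart 2 (4.06%), skin 2 (5.56%). Thymus (6.67%), lung (4.46%), liver (4.34%), colon (4.26%), spleen (4%), lymph node (3.08%) and stomach (1.92%) held 0. Values are means ± SD over 4 libraries. Each of the 12 tissues ranked first for its own marker genes, lymph node narrowly, at 2372 CPM against 2258 CPM in spleen.

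The brain group drew on 3 imprinted clusters and several single genes. From the Dlk1-Meg3 locus came Meg3, Rian, Mirg and Rtl1. Meg3 had 3817, 4303, 4709.9 and 3186 CPM in the 4 brain libraries, and 179 ± 15.4 CPM in ovary, the next tissue (log2 fold 6.87 ± 0.31 SE, adjusted p = 3.29e-22, edgeR). Rian averaged 629 ± 62.4 CPM in brain and 69.7 ± 7.91 CPM in ovary, the next tissue, and Mirg averaged 42.3 ± 4.60 CPM in brain and 3.30 ± 1.01 CPM in ovary, the next tissue. No brain library overlapped those of the next tissue for these 3 RNAs. Rtl1 was low, at 0.709 ± 0.397 CPM in brain, and overlapped with skin, the next tissue, at 0.476 ± 0.0826 CPM. From the Snrpn locus came Snrpn, Ndn and Magel2. Snrpn had 205, 182, 206 and 167 CPM in the 4 brain libraries, and 19.2 ± 2.00 CPM in heart, the next tissue (log2 fold 5.63 ± 0.11 SE, adjusted p = 1.74e-34, edgeR). Ndn averaged 161 ± 28.7 CPM in brain and 34.9 ± 4.70 CPM in ovary, the next tissue. Magel2 had 5.47, 6.85, 8.87 and 0.770 CPM in the 4 brain libraries, low in library 4, and 0.272 ± 0.0489 CPM in thymus (log2 fold 8.84 ± 0.50 SE, adjusted p = 3.46e-17, edgeR). From the Peg3 locus came Peg3, Usp29 and Zim1. Peg3 had 552, 519, 463 and 470.1 CPM in the 4 brain libraries, and 105 ± 12.9 CPM in skin (log2 fold 4.25 ± 0.20 SE, adjusted p = 1.44e-21, edgeR). Usp29, of the ubiquitin-specific proteases, showed the same separation, at 49.3, 46.9, 46.2 and 24.9 CPM in brain libraries and 0.856 ± 0.481 CPM in stomach (log2 fold 8.06 ± 0.30 SE, adjusted p = 4.78e-25, edgeR). Zim1 overlapped with kidney and was enriched there instead without kidney library 4.

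Rasgrf1, an exchange factor for Ras, had a large brain fold. Rasgrf1 had 722, 344.8, 314.9 and 264 CPM in the 4 brain libraries, and 8.10 ± 2.35 CPM in skin, the next tissue (log2 fold 8.94 ± 0.51 SE, adjusted p = 6.27e-19, edgeR). Impact averaged 193 ± 32.2 CPM in brain and 59.2 ± 2.05 CPM in ovary, the next tissue, without overlap. Nnat averaged 131 ± 56.5 CPM in brain and 74.8 ± 27.2 CPM in ovary, the next tissue, with overlap. Ppp1r9a was enriched in brain too and overlapped with ovary. Igf2r, Airn, Kcnq1ot1, Gnas, Cd81, Sgce, Grb10, Mest, Cdkn1c, Mkrn3, Peg12 and Zrsr1 were enriched nowhere by this rule. Of these, Gnas, Grb10 and Zrsr1 had a highest tissue (brain, ovary and brain) whose libraries lay above all of the next tissue, by 1.20, 1.23 and 1.49 times in the means. 15 genes averaged 1 CPM or more in every tissue and Rtl1 did so in none.

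The heat map of tissues shows the kidney, ovary, heart and skin groups beside that of brain. Gatm had 1921, 1573, 1565 and 1621 CPM in the 4 kidney libraries, and 114 ± 22.6 CPM in brain, the next tissue (log2 fold 6.94 ± 0.11 SE, adjusted p = 6.75e-37, edgeR). Slc22a18 had 389, 387, 441 and 409 CPM in the 4 kidney libraries, and 114 ± 6.11 CPM in liver (log2 fold 6.17 ± 0.20 SE, adjusted p = 6.30e-27, edgeR). Phlda2 had 7.20, 9.13, 9.79 and 8.14 CPM in the 4 kidney libraries, and 3.50 ± 1.48 CPM in stomach. All 3 were apart from the next tissue. Ovary led for Plagl1, Dio3 and Peg10. Plagl1 had 70.7, 136, 86.4 and 89.0 CPM in the 4 ovary libraries, and 50.5 ± 2.52 CPM in lung (log2 fold 2.41 ± 0.21 SE, adjusted p = 1.23e-12, edgeR). Dio3, the deiodinase that inactivates thyroid hormone, had 4.0, 7.71, 6.32 and 4.10 CPM in ovary libraries and 0.900 ± 1.16 CPM in brain. Peg10 had 37.5, 128, 62.4 and 105 CPM in the 4 ovary libraries and overlapped with brain. Skin led for Dlk1 and Ascl2, both overlapping with the next tissue, kidney for Dlk1 and colon for Ascl2.

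**Figure D5:**
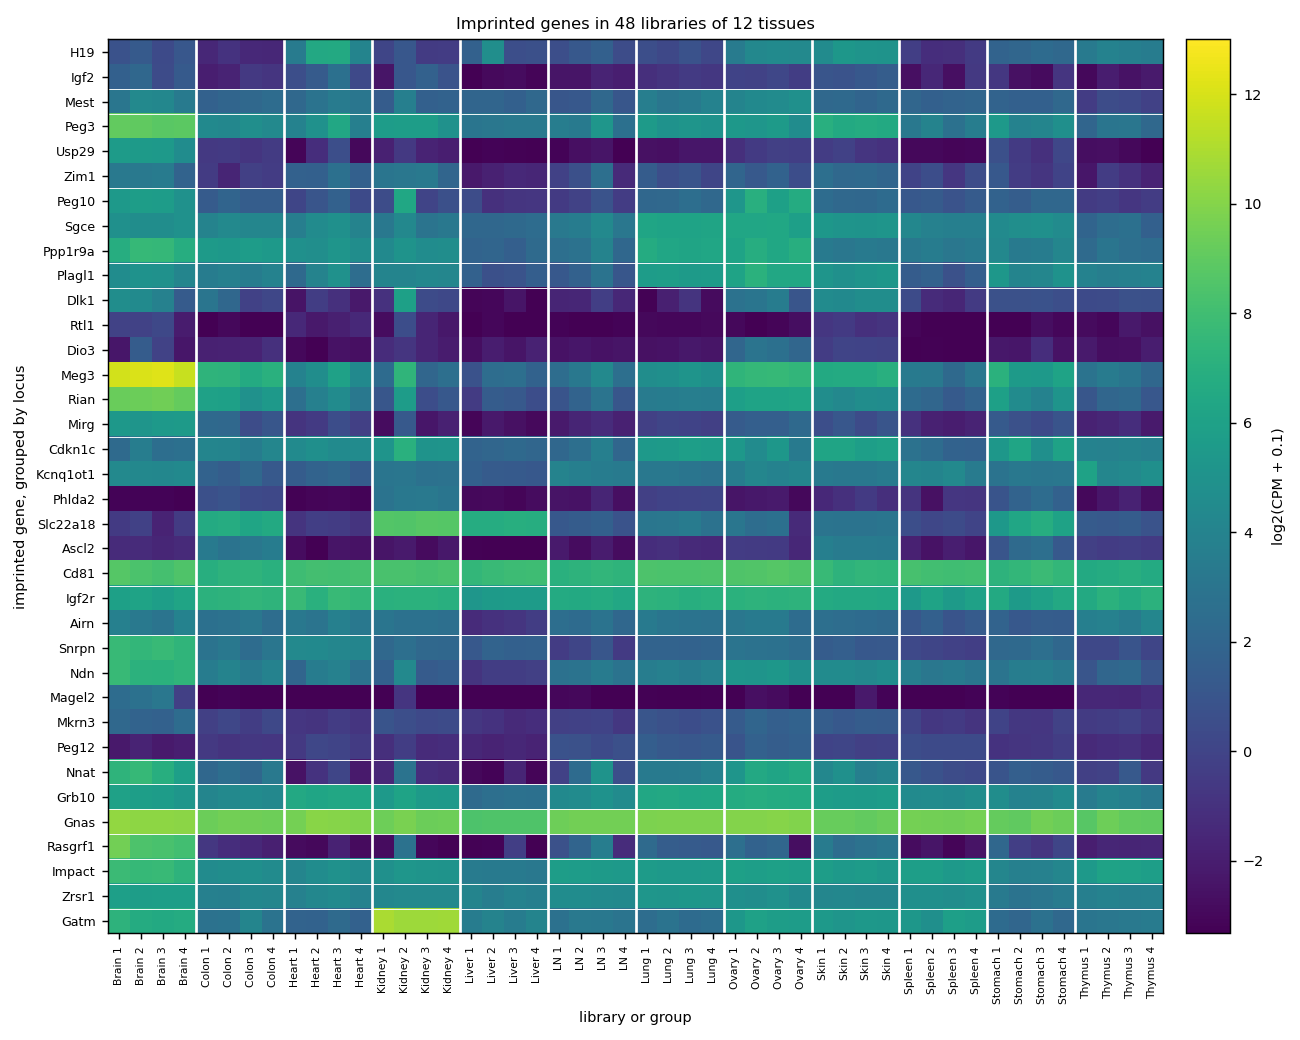
Level of each of the 36 imprinted genes as log2(CPM + 0.1), genes in rows and the 48 single libraries of 12 tissues in columns, 4 for each tissue. By means over the 4 libraries of a tissue, which are not drawn, brain was highest for 17 genes and ovary for 8. Heart, kidney and skin were highest for 3 each and thymus for 2.

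Single tissue libraries set some of these levels. Igf2 averaged 2.84 ± 2.42 CPM in heart and 2.76 ± 1.27 CPM in brain, the next tissue, and Igf2 was called enriched in heart, or in brain instead without heart library 3, brain library 3 or brain library 4. H19 had 11.2, 91.1, 98.0 and 16.5 CPM in the 4 heart libraries (log2 fold 4.72 ± 0.31 SE, adjusted p = 1.01e-16, edgeR), and 33.2 ± 6.77 CPM in skin, so heart and skin overlapped. Libraries 2 and 3, the high ones, also had the highest sums of 5 adipocyte markers, 112 and 170 CPM, against 0.127 and 7.5 CPM in libraries 1 and 4, and their part was not tested. Kidney library 2 differed most. Of 26 imprinted genes at 5 CPM or more in some kidney library, 9 (34.6%) lay over 3-fold above the highest of the other 3 there, against 1.78% of 12024 genes. Dlk1 had 0.411, 63, 1.23 and 1.05 CPM, Meg3 5.2, 163, 4.17 and 6.23 CPM, Peg10 1.32, 85.7, 0.907 and 1.47 CPM and Cdkn1c 35.6, 130.2, 34.0 and 34.4 CPM in kidney libraries 1 to 4. In that library 6 markers of adrenal cortex, a list chosen after seeing the data, summed to 8426 CPM, against 1.40 to 1.83 CPM in the others, and 4 of adrenal medulla to 447 CPM, against at most 0.333 CPM, and their part was not tested. The ovary list (Amh, Zp3, Star, Cyp11a1 and Inha) reached 2468 CPM there too, against 3.29 to 3.98 CPM in the others. That sum does not say which of the 5 genes gave it. The 5 adipocyte markers summed to 530 CPM in kidney library 2, against 38.3 to 154 CPM, and their part was not tested. H19 had 3.22, 27.2, 1.44 and 1.49 CPM in the 4 liver libraries, where library 2 also had 387 CPM of 6 skeletal muscle markers, against under 1 CPM in the others. Nnat had 0.799, 5.09, 32.7 and 1.44 CPM in the 4 lymph node libraries, where library 3 had 3645 CPM of adipocyte markers, against 37.9 to 896 CPM.

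Genes of a locus did not always share a tissue profile. Over the means of 12 tissues, the Spearman correlation of 48 pairs at the same locus had a median of 0.51 and ran between -0.671 and 0.986, against a median of 0.385 for 582 pairs at different loci. These are descriptions over means that share libraries. Meg3 with Rian gave 0.986 and Meg3 with Mirg 0.944, transcripts that lie in 1 orientation on chromosome 12. Peg10 with Sgce gave 0.741. H19 with Igf2 gave 0.21, and Kcnq1ot1 with Slc22a18, which lie at the same locus, gave -0.671.

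Per kilobase of exon, the leading imprinted gene changed with the tissue. In brain Meg3 was first of the 36 at 221 ± 36.3 CPM per kilobase (mean ± SD, n = 4), ahead of Cd81 at 122 ± 18 CPM per kilobase. In kidney Gatm was first at 556 ± 56.3 CPM per kilobase. In melanocytes, ovary and skin Cd81 was first, at 186 ± 35.4 CPM per kilobase in melanocytes (n = 5). Meg3 reached 4.83 ± 4.63 CPM per kilobase in melanocytes.

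Genes around the 36 were read from 3 further lists. Of 48 other imprinted genes, 30 were tested in the KO comparisons and 0 were called in any line (edgeR). A list of 34 imprint factors also held genes of other roles, such as Tet1, Dnmt3b and Ezh2, so its counts do not measure how imprints are kept. In that list Setdb1 itself fell in KO cells of B16, B16OVA and MCA101OVA. Atf7ip, the partner protein of Setdb1, rose in B16OVA KO cells (log2 fold 1.44 ± 0.26 SE, adjusted p = 0.000635, edgeR). Of 19 IGF axis and growth genes none of 15 tested was called in KO cells. Against melanocytes, B16OVA WT cells had 12 of 31 tested genes of the imprint factor list higher and 1 lower. Over all tested genes 14.3% were higher and 19.5% lower. Dnmt1, the methyltransferase that copies methylation at replication, was higher (log2 fold 2.72 ± 0.27 SE, adjusted p = 0.000244, edgeR), as were its cofactor Uhrf1 (log2 fold 5.06 ± 0.61 SE, adjusted p = 0.000537, edgeR), Ezh2 of the Polycomb complex and the helicase Hells. Of the other imprinted genes 4 of 33 were higher and 13 lower, and of the IGF axis 2 of 17 were higher and 7 lower, so the higher counts of both lists lay near the share over all genes. Cobl (log2 fold -10.58 ± 0.85 SE, adjusted p = 0.000276, edgeR) and Igf1r (log2 fold -2.17 ± 0.42 SE, adjusted p = 0.00422, edgeR) were among the lower ones. Zfp57, whose product binds the hexamer shown above, was lower in B16OVA WT cells than in libraries labelled MC38 WT (log2 fold -3.47 ± 0.40 SE, adjusted p = 0.000448, edgeR) and than in MCA101OVA WT cells (log2 fold -3.31 ± 0.59 SE, adjusted p = 0.00268, edgeR). Against MCA101OVA WT, 4 of 30 tested genes of the imprint factor list were higher and 2 lower. Over all tested genes 14.4% were higher and 11.9% lower. Neither count of that list lay above the share over all genes. The RNA-binding protein gene Igf2bp2 and the chromatin protein gene Hmga2 were lower too in B16OVA WT cells than in libraries labelled MC38 WT (log2 fold -4.58 ± 0.41 SE, adjusted p = 0.000181 for Igf2bp2, edgeR).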

How the data were processed

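RNA was measured by poly-A RNA sequencing in 105 libraries. The authors deposited whole-number read counts per gene, raw and not normalized, for 53379 gene rows. Trim Galore, FastQC, STAR, HTSeq and the mm10 build are named, per the submitters' processing notes, while their versions, the gene annotation and how strand was handled are not given in sources at hand. Gene coordinates and exon lengths came from GENCODE vM21. CPM is a gene's count over its library's total count. Tests were made with edgeR 4.0.16 in R 4.3.3 (limma 3.58.1) by the quasi-likelihood test, with TMM scaling, filterByExpr, the bracketed code of a library's title as a covariate and Benjamini-Hochberg adjustment over all tested genes at 0.05. KO, Ctrl and interaction contrasts came from 1 fit of 45 libraries. WT comparisons and the 48 tissue libraries were fitted alone, on shared codes. The alternatives were DESeq2 1.42.0, RLE scaling, other filters on low counts, no code term, a replicate block, fewer libraries in the fit, WT as the control and leaving out each library.

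The pairing of libraries came from the sets their titles number. Same-set libraries deviated together in 9 of 9 pairs in each of B16, B16OVA and MCA101OVA (correlations 0.276 to 0.879, 0.211 to 0.856 and 0.190 to 0.869). Code B262 joins sets, so the reported fits, which use the code, leave part of this pairing out of their intervals and p-values. A block by set was fitted only as an alternative, for the KO, Ctrl and interaction comparisons. Among 154 within-group pairs 0 held identical counts. The fits were tested on simulated data. Named genes were those called in a contrast, the 3 highest and 3 lowest folds at 1 CPM or more, and the genes most uneven among melanocyte libraries, beside up to 4 called genes a contrast from other lists. The genes and the lists were chosen with earlier results of these data known. Intervals of counts and the floor of 3 counts cover counting error only.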

Additional observations from a re-analysis of the deposited data

Results flagged for a closer look

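In groups of 4 to 6 libraries, a library was set apart where its gap to the nearest other exceeded Dixon's critical value. Chance does so in about 1 of 20 groups, and 26 of 279 gene and group pairs at 5 CPM or more did, 3 of them in code D804. Melanocyte library 1 was the high one for H19 (579 CPM, others at most 82.7 CPM), Cdkn1c (168, others at most 20.4 CPM), Mest (21.6, others at most 3.66 CPM) and Slc22a18 (16.8, others at most 9.48 CPM).

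Kidney library 2 was the high one for 10 genes, at 163 CPM of Meg3, 85.7 of Peg10, 63 of Dlk1, 52.5 of Rian, 130.2 of Cdkn1c, 20.8 of Ndn, 12.9 of Mest, 19.4 of Sgce, 71.1 of Grb10 and 838 of Gnas. Kidney library 1 was high for Gatm (1921 CPM) and kidney library 4 low for Peg3 (30.0 CPM). Brain library 4 was low for Usp29 (24.9 CPM) and Zim1 (3.63 CPM). Liver library 2 was high for H19 (27.2 CPM), lymph node library 3 for Nnat (32.7 CPM), colon library 3 for Gatm (17.1 CPM), heart library 2 for Cdkn1c (28.1 CPM) and skin library 4 for Meg3 (124 CPM), while skin library 3 was low for Ndn (19.8 CPM).

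In tumour lines, B16OVA Ctrl library 5 was low for Sgce (69.4 CPM, others at least 85.0 CPM) and B16OVA WT library 2 high for Gnas (1443 CPM, others at most 1024 CPM). Outside the groups compared, the lowest library labelled MC38 of code B176 held 44.9 CPM of Plagl1 and 141 CPM of Grb10, against at most 0.0591 and 0.116 CPM in code D176.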

How the results depend on the processing

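Recomputed under the alternatives, 300 counts of called imprinted genes stayed within 1.5 times of the reported count and 3 did not. Of 203 counts in the KO, Ctrl and interaction comparisons 200 were 0. The exceptions were 1 gene in MCA101OVA KO against Ctrl cells (Kcnq1ot1, higher) and 1 gene in B16OVA Ctrl against WT cells (Gatm, lower) with no filter on low counts, and again 1 gene (Gatm, lower) in B16OVA Ctrl against WT cells without the libraries low for long genes. The cause was not tested. A replicate block by library set changed no call among the imprinted genes, with 0 called in each KO, Ctrl and interaction comparison. B16OVA WT against MCA101OVA WT and against B16 WT were not refitted with that block, so their calls were not checked against this pairing. Leaving out 1 library at a time gave 0 in all of these and in B16OVA against B16. It gave 13 to 19 genes against melanocytes (18 reported), 12 to 16 against libraries labelled MC38 WT (12 reported) and 13 to 14 against MCA101OVA WT (14 reported), and 24 to 25 tissue-enriched genes (24 reported). Tissue-enriched genes numbered 34 with a log2 fold of at least 1 and 21 with a stricter filter. The KO comparisons gave no value for the 17 genes with too few counts to test in any line, 6 of which had 0 counts in all 45 libraries. With 3 libraries a group most intervals of the other genes reached past 1 log2 unit.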
